A study of Mus musculus with 9 samples.

Results

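Genes that Wnt signalling is known to switch on, Axin2, Nkd1, Lgr5, Notum, Rnf43, Znrf3, Sp5, Tcf7, Lef1 and Apcdd1, were followed through 9 mouse pancreatic tumors that differ in their Scrib genotype. They were chosen as a named set of 10 direct Wnt/beta-catenin targets and feedback regulators, out of 54453 gene rows, and each matched 1 row. Of the 9 tumors, 5 were labelled Scrib null (genotype written KPF/+CSF/F; tumors 7, 14, 15, 18 and 23) and 4 were labelled Scrib WT (KPF/+C; tumors 2, 3, 6 and 9), so all of them carry the KPF/+C background of the KPC strain. KPC mice are a Cre-driven model of pancreatic ductal adenocarcinoma, and Scrib encodes a scaffold protein that helps to set apical-basal polarity in epithelia. The labels do not spell out the alleles, the promoter that drives Cre or the age of the mice, nor whether 1 mouse could have given more than 1 tumor, and every p-value below rests only on how far these 9 tumors differ. RNA came from whole frozen tumors and was read as mRNA libraries. Tumors are called null 7, WT 3 and so on after their labels.

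In the Wnt pathway, a secreted Wnt protein binds a Frizzled receptor with Lrp5 or Lrp6, which stops a complex of Axin, Apc and Gsk3 from marking beta-catenin for destruction. Beta-catenin then enters the nucleus, joins DNA-binding proteins of the TCF/LEF family and switches on target genes. Many targets are themselves brakes on the pathway, so their mRNA is widely used as a readout of signalling, and R-spondins raise Wnt sensitivity by keeping the brakes Rnf43 and Znrf3 away from Frizzled.

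Libraries held 19281212 to 27596832 estimated counts in the tumors labelled null and 10145830 to 26502285 in those labelled WT. Levels are given as CPM, the estimated counts scaled to a common library total. Markers of epithelial cells were high in every tumor, with 8 genes summing to 6774 to 13105 CPM in null and 8131 to 11668 CPM in WT. Markers of acinar cells, the enzyme-making cells of the pancreas, summed to 7.21 to 259 CPM in null and 19.0 to 260.4 CPM in WT. Scrib itself was at 102, 53.8, 55.4, 53.2 and 36.9 CPM in null 7, 14, 15, 18 and 23, against 88.6, 44.1, 62.0 and 87.4 CPM in WT 2, 3, 6 and 9. With a log2 fold change of -0.23 (null over WT, SE 0.31; edgeR quasi-likelihood adjusted p = 0.712), whole-gene Scrib mRNA did not separate the labels, and the highest level stood in a tumor labelled null. The log2 fold change of Scrib was -0.48 (SE 0.25; edgeR adjusted p = 0.377) without null 7 and -0.63 (SE 0.22; edgeR adjusted p = 0.376) without both null 7 and WT 3. Counts over the whole gene in whole tumors do not show whether part of Scrib was missing in some cells. Reads per exon were not examined, so the genotype labels were not tested here. Xist and Y-linked transcripts marked null 7, null 18 and WT 3 as male and the other 6 tumors as female. Tumors null 7 and WT 3 stood apart from the rest in the genes described here, and results are given with and without them.

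None of the 10 genes passed the threshold between genotypes. In edgeR's quasi-likelihood test over 16169 genes, 0 of the 10 were called at an adjusted p under 0.05, where 0.0124% of all genes tested were called, and 0 had an unadjusted p under 0.05, where 17.7% of all genes did. DESeq2 and limma-voom also called 0 of the 10, with 0 at an unadjusted p under 0.05 in each. A positive log2 fold change was seen for 5 and a negative one for 5, with a median of 0.04 against -0.03 over all genes tested. For all 10 genes the CPM values of the null and WT tumors overlapped, where 6.91% of all genes had groups that did not. Adjusted p-values ran from 0.358 to 0.984. Without both null 7 and WT 3, 0 were called by edgeR, 0 had an unadjusted p under 0.05, and log2 fold changes ran from -1.26 for Lgr5 to 0.50 for Tcf7. The confidence intervals were wide: the 95% interval of Axin2 ran from a log2 fold change of -2.57 to 1.82, which spans changes of several fold in either direction.

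**Figure D1:**
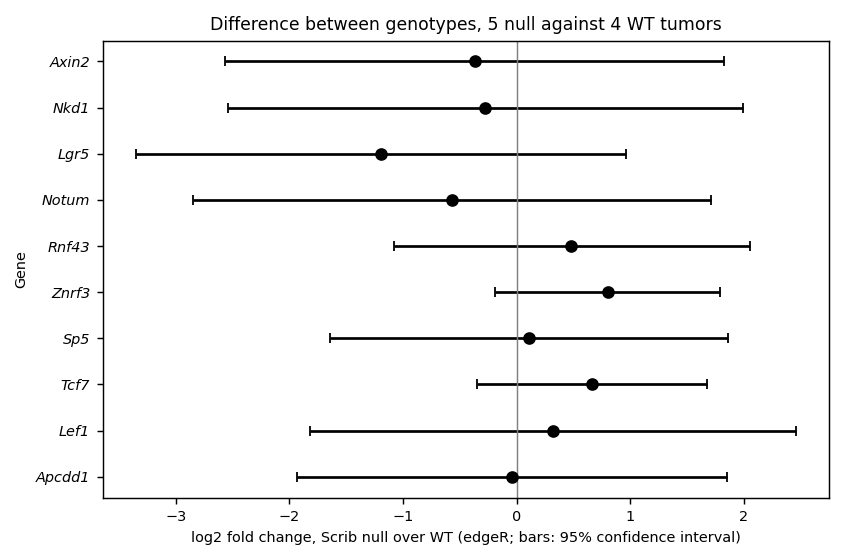
Log2 fold change of each gene, Scrib null over WT (5 null and 4 WT tumors), with bars for the 95% confidence interval from edgeR's fit. Every interval crosses 0, from Znrf3 at 0.80 to Lgr5 at -1.19.

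The levels of these genes differed widely from tumor to tumor. The standard deviation of log2 CPM over the 9 tumors had a median of 1.70 over the 10 genes, against 0.58 over all genes tested, and was above that all-gene median for 10 of 10. Nkd1 varied more than 98.7% of all genes tested and Axin2 more than 98.6%, whereas Znrf3 varied more than 72.3%. The lowest of the 4 WT tumors was WT 3 for all 10 genes. The lowest of the 5 null tumors was null 7 for 6 of them, and for those 6, Axin2, Nkd1, Lgr5, Sp5, Lef1 and Apcdd1, both null 7 and WT 3 lay below the other 7 tumors. WT 3 was also the lowest WT tumor for many of the pathway genes described below, such as Ctnnb1, Apc and Gsk3b. Null 7 was the lowest null tumor for others, such as Wls and Sfrp1. The share of all genes with their lowest level in these tumors was not counted.

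**Figure D2:**
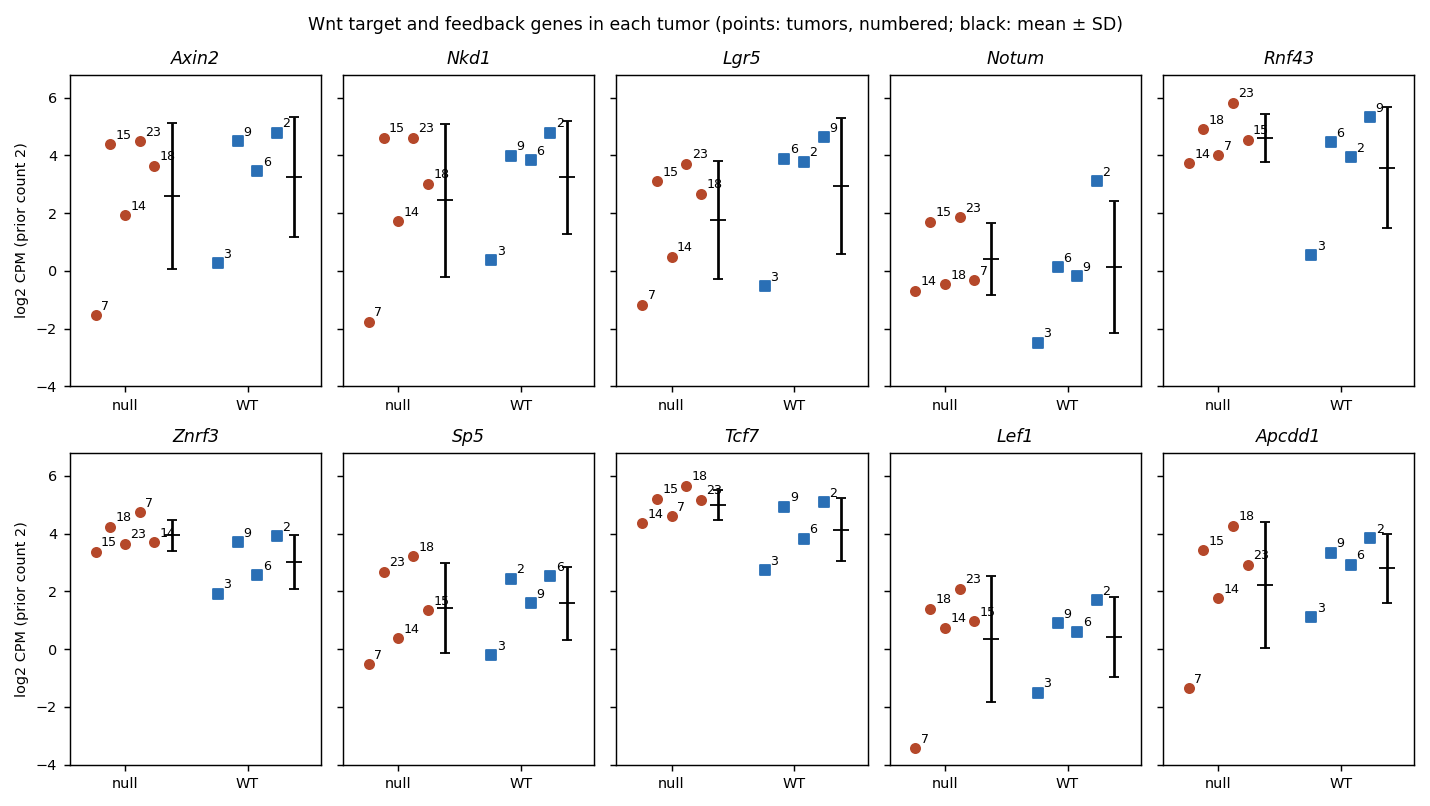
Log2 CPM of each gene (vertical axis) in the 5 Scrib null and 4 Scrib WT tumors (points, numbered by tumor), with the mean and SD of each genotype in black. Null 7 and WT 3 are the lowest tumors of their genotypes for Axin2, Nkd1, Lgr5, Sp5, Lef1 and Apcdd1, and the genotypes overlap for all 10 genes.

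Axin2 and Nkd1 act inside the cell as brakes. Axin2, a scaffold of the beta-catenin destruction complex and a standard readout of Wnt signalling, lies on chromosome 11 (GRCm38, chr11:108920349-108950783, plus strand). It was at 0.252, 3.68, 20.7, 12.4 and 22.5 CPM in null 7, 14, 15, 18 and 23, against 27.5, 1.12, 10.9 and 22.3 CPM in WT 2, 3, 6 and 9. Each genotype held tumors with high and with low Axin2, and the highest tumor over the lowest was 89.3-fold within null and 24.6-fold within WT. The means were 11.9 ± 9.91 CPM in null (SD, n = 5) and 15.4 ± 11.8 CPM in WT (SD, n = 4), a log2 fold change of -0.37 (SE 0.99; edgeR adjusted p = 0.86). The level in null 7 rested on 5 counts (exact Poisson 95% interval 1.62 to 11.7, counting error only) and that in WT 3 on 13 counts (6.92 to 22.2).

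Nkd1, which binds Dishevelled and dampens signalling, lies on chromosome 8 (chr8:88521354-88594884, plus strand). Its levels were 0.202, 3.21, 24.4, 8.04 and 24.3 CPM in null 7, 14, 15, 18 and 23, against 27.3, 1.20, 14.1 and 15.8 CPM in WT 2, 3, 6 and 9. The order of tumors was close to that of Axin2, with null 7 lowest, WT 3 next and WT 2 highest for both genes. Nkd1 averaged 12.0 ± 11.6 CPM in null and 14.6 ± 10.7 CPM in WT (SD, n = 5 and 4), a log2 fold change of -0.28 (SE 1.03; edgeR adjusted p = 0.905), which turned to 0.07 without null 7. Nkd2, a relative of Nkd1 named after its values were seen, was likewise lowest in null 7 at 2.32 CPM and next in WT 3 at 8.59 CPM; the remaining null tumors held 18.7 to 49.0 CPM and the remaining WT tumors 22.0 to 65.5 CPM.

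Lgr5, Rnf43 and Znrf3 act at the receptor. Lgr5, an R-spondin receptor that marks stem cells of the intestine (chr10:115450311-115587780, minus strand), was at 0.353, 1.31, 8.45, 6.29 and 13.0 CPM in null 7, 14, 15, 18 and 23, against 13.7, 0.601, 14.7 and 24.9 CPM in WT 2, 3, 6 and 9. WT 2, WT 6 and WT 9 stood above every null tumor and WT 3 stood among the lowest. Its means were 5.88 ± 5.21 CPM in null and 13.5 ± 9.97 CPM in WT (SD, n = 5 and 4). At -1.19 (SE 0.98; edgeR adjusted p = 0.52), the log2 fold change was the most negative of the 10. Without both null 7 and WT 3 it was -1.26 (adjusted p = 0.467). Its low values rested on 7 counts in null 7 and 7 in WT 3 (exact Poisson 95% interval 2.81 to 14.4 for each).

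Rnf43 and Znrf3 are related membrane ubiquitin ligases that remove Frizzled receptors from the cell surface. Rnf43 (chr11:87662722-87735539, plus strand) was at 16.0, 13.0, 23.1, 29.7 and 56.3 CPM in null 7, 14, 15, 18 and 23, against 15.2, 1.37, 22.0 and 40.2 CPM in WT 2, 3, 6 and 9. Unlike Axin2, it was low in WT 3 and not in null 7. It averaged 27.6 ± 17.3 CPM in null and 19.7 ± 16.2 CPM in WT (SD, n = 5 and 4), a log2 fold change of 0.48 (SE 0.71; edgeR adjusted p = 0.729) that came to 0.13 without WT 3.

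Znrf3 (chr11:5276324-5444847, minus strand) was at 26.6, 12.9, 10.3, 18.8 and 12.5 CPM in null 7, 14, 15, 18 and 23, against 14.9, 3.69, 5.85 and 12.9 CPM in WT 2, 3, 6 and 9. Null 7, the tumor with the least Axin2, had the most Znrf3. Its means of 16.2 ± 6.58 CPM in null and 9.33 ± 5.40 CPM in WT (SD, n = 5 and 4) gave the largest positive log2 fold change of the 10, 0.80 (SE 0.45; unadjusted p = 0.104 and adjusted p = 0.358 in edgeR's fit across all genes). That value was 0.33 (adjusted p = 0.743) without both null 7 and WT 3.

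Apcdd1 and Notum restrain Wnt proteins or their receptors from outside the cell. Apcdd1, a membrane glycoprotein that inhibits Wnt signalling (chr18:62922231-62961179, plus strand), was at 0.303, 3.31, 10.7, 19.4 and 7.48 CPM in null 7, 14, 15, 18 and 23, against 14.3, 2.06, 7.50 and 10.1 CPM in WT 2, 3, 6 and 9. Null 7, with 6 counts (exact Poisson 95% interval 2.20 to 13.1), lay below every other tumor. The means, 8.24 ± 7.39 CPM in null and 8.49 ± 5.13 CPM in WT (SD, n = 5 and 4), gave a log2 fold change of -0.04 (SE 0.85; edgeR adjusted p = 0.984).

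Notum, a secreted enzyme that strips the lipid Wnt needs to bind its receptor (chr11:120653788-120661175, minus strand), was low throughout, at 0.706, 0.526, 3.15, 0.633 and 3.53 CPM in null 7, 14, 15, 18 and 23, against 8.50, 0.0859, 1.0 and 0.781 CPM in WT 2, 3, 6 and 9. One tumor, WT 2, held most of the WT signal, and WT 3 rested on 1 count (exact Poisson 95% interval 0.0253 to 5.57). The log2 fold change was -0.57 (SE 1.03; edgeR adjusted p = 0.783), and without WT 2 it reversed to 1.41 (adjusted p = 0.377).

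Sp5, Tcf7 and Lef1 are DNA-binding proteins. Tcf7 and Lef1 carry beta-catenin to target genes and are targets themselves, and Sp5 is a zinc-finger factor of the Sp family that Wnt signalling induces. The TCF/LEF family is known to bind a short core word, of which CTTTGA and, as a variant, CTTTGT were looked for here. The windows from 250 bases before to 50 bases after annotated starts in RefSeq (GRCm38.p6) were searched on both strands. Windows were found for 6 of the 10 genes, 11 in all, and 2 of the 11 held a match, 1 each in Sp5 and Lef1. Of all 32851 such windows, 16.0% held the first word, 18.7% held the second and 31.2% held either. Lgr5, Notum, Znrf3 and Apcdd1 were the other 4. The windows of Sp5 (chr2:70474673-70474972, plus strand), of 1 of 4 Lef1 starts (chr3:131156044-131156343, plus strand) and of Axin2 (chr11:108920099-108920398, plus strand) are shown because Sp5 and Lef1 are the genes with matches and Axin2 is the standard readout. Capitals mark either word or its reverse complement on the printed strand, and no match overlapped another.
Sp5: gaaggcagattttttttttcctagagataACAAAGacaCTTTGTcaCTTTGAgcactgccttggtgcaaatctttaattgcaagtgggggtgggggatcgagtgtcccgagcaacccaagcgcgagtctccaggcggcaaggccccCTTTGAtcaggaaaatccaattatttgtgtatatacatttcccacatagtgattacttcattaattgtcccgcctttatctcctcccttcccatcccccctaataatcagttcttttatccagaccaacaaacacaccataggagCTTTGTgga
Lef1: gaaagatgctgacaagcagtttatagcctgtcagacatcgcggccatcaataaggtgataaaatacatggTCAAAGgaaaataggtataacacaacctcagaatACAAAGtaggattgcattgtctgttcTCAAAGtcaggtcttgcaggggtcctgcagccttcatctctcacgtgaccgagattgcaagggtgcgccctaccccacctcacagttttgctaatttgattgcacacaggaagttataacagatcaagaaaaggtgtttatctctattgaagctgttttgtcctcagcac
Axin2: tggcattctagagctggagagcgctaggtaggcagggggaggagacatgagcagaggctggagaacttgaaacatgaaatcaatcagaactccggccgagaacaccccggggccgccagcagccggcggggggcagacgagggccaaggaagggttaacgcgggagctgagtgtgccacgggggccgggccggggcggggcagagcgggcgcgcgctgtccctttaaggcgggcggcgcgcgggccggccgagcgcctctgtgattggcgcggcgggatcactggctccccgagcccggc
In Sp5 the CTTTGA matches began 204 and 104 bases before the start. A match to the variant on the same strand began 212 bases before it. The Lef1 matches began 180, 146 and 120 bases before its start, all on the reverse strand. The Axin2 window held neither word.

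Sp5 (chr2:70474923-70477729, plus strand), with the most matches, was at 0.605, 1.21, 2.46, 9.20 and 6.35 CPM in null 7, 14, 15, 18 and 23, against 5.35, 0.773, 5.66 and 2.91 CPM in WT 2, 3, 6 and 9. Null 18 was highest and null 7 lowest, so the null tumors enclosed the WT tumors. The means were 3.97 ± 3.68 CPM in null and 3.67 ± 2.29 CPM in WT (SD, n = 5 and 4), a log2 fold change of 0.11 (SE 0.79; edgeR adjusted p = 0.952), and it was -0.46 without null 18.

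Tcf7 (chr11:52252371-52283014, minus strand) was at 24.1, 20.6, 37.0, 50.5 and 35.9 CPM in null 7, 14, 15, 18 and 23, against 34.0, 6.53, 14.0 and 30.7 CPM in WT 2, 3, 6 and 9. Only WT 3 and WT 6 lay below all null tumors. It averaged 33.6 ± 11.9 CPM in null and 21.3 ± 13.2 CPM in WT (SD, n = 5 and 4), a log2 fold change of 0.66 (SE 0.46; edgeR adjusted p = 0.447). T cells also make Tcf7 and Lef1. The 10 T cell markers summed to 4.04 to 11.6 CPM in null and 8.12 to 18.6 CPM in WT. The sum of 4.04 CPM was in null 7, where 2 of the 10 markers were at 0, Tcf7 was 24.1 CPM and Lef1 gave no count. The sum of 18.6 CPM was in WT 3, where Tcf7 was 6.53 CPM and Lef1 0.258 CPM. The part of T cells in the Tcf7 and Lef1 levels was not tested.

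Lef1 (chr3:131110471-131224356, plus strand) was the least abundant per length. It was at 0, 1.58, 1.88, 2.57 and 4.20 CPM in null 7, 14, 15, 18 and 23, against 3.15, 0.258, 1.42 and 1.78 CPM in WT 2, 3, 6 and 9. Null 7 gave no count (exact Poisson 95% interval 0 to 3.69 counts). Against a floor of 3 counts, or 0.151 CPM, the lowest of the other null tumors was 10.4-fold higher. The counting error of that other tumor was left out of this fold. Lef1 averaged 2.05 ± 1.53 CPM in null and 1.65 ± 1.19 CPM in WT (SD, n = 5 and 4), a log2 fold change of 0.32 (SE 0.97; edgeR adjusted p = 0.88), and it was 0.0 without WT 3.

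Scaled by exon length, the order of the 10 genes by median CPM per kilobase over the 9 tumors was Tcf7 at 11.7, Rnf43 at 3.35, Nkd1 at 3.10, Axin2 at 2.26, Znrf3 at 1.63, Sp5 at 1.38, Lgr5 at 0.824, Apcdd1 at 0.582, Notum at 0.324 and Lef1 at 0.202. Exon length was the union of all annotated exons of a gene, and the length of the transcripts present was not measured. On this scale Tcf7 was above Rnf43 and Notum above Lef1 in 9 of 9 tumors, and Sp5 was above Lgr5 in 8. The remaining 6 neighbouring pairs changed places from tumor to tumor, with the gene of higher median on top in 5 to 7 of 9, so their levels did not differ beyond the spread between tumors.

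Tumors null 7 and WT 3 were both low in most of these genes but differed in which. Relative to the median of the other 7 tumors, null 7 showed a log2 difference of -5.91 for Axin2, -5.75 for Nkd1, -4.88 for Lgr5, -4.68 for Apcdd1, -4.41 for Lef1 and -2.96 for Sp5, and was nearer that median for Notum (-0.45), Rnf43 (-0.53) and Tcf7 (-0.49) and above it for Znrf3 (1.04). WT 3 was lower for all 10, from -4.24 for Lgr5, -4.10 for Axin2 and -3.99 for Rnf43 to -1.78 for Znrf3. Over all genes tested the median difference was 0.01 in null 7 and -0.15 in WT 3, and 10.1% of genes lay below -2 in null 7 and 5.34% in WT 3. In bulk samples, fewer cells of a type and less RNA per cell cannot be told apart.

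**Figure D3:**
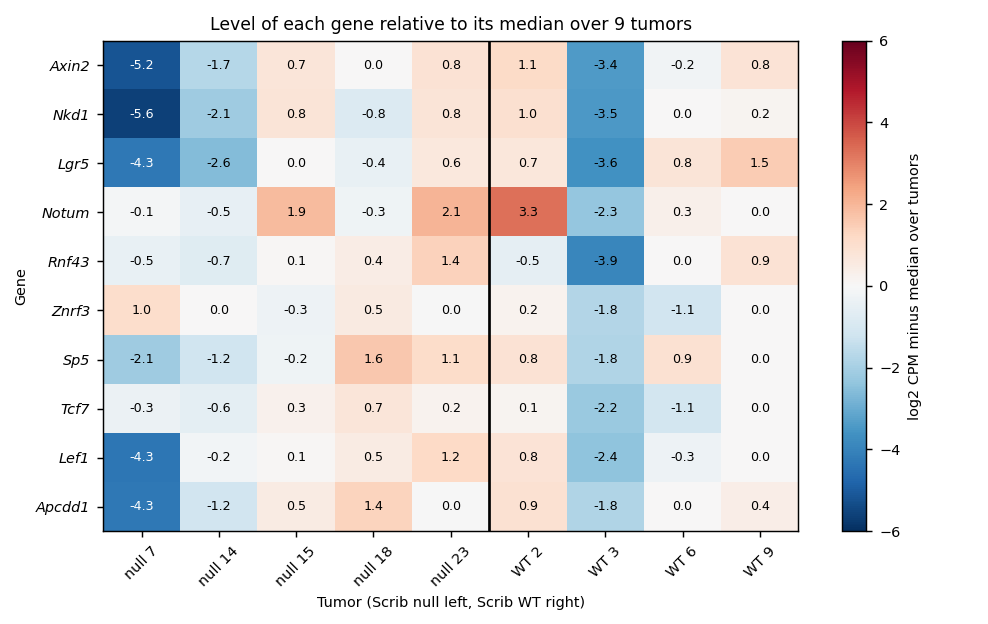
Log2 CPM of each of the 10 genes (rows) in each tumor (columns, 5 null then 4 WT), with each gene's median over the tumors set to 0. Null 7 is far below 0 for Axin2, Nkd1, Lgr5, Lef1 and Apcdd1 and near or above it for Rnf43, Znrf3, Tcf7 and Notum, and WT 3 is below it for all 10.

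Cell type markers also differed in these tumors. The 8 epithelial markers summed to 6774 CPM in null 7, below every other tumor, and to at least 10286 CPM in the other null tumors. WT 3 held 11668 CPM, against 8131 to 11421 CPM in the other WT tumors. The 9 fibroblast markers summed to 365 CPM in null 7 and to at least 3414 CPM in the other null tumors, against 2207 CPM in WT 3 and at least 3514 CPM in the other WT tumors. The 8 endothelial markers summed to 61.5 CPM in null 7 and at least 203 CPM in the other null tumors, while WT 3, at 418 CPM, lay inside the WT range of 319 to 542 CPM. The 6 neutrophil markers summed to 2828 CPM in WT 3, with 219 to 511 CPM in the rest of the WT group. All 9 fibroblast, 8 endothelial and 10 macrophage markers had negative log2 fold changes, null over WT, with 0 called. The non-epithelial level used as a covariate was the mean over all marker lists but the epithelial one, each list weighted alike. Acinar, endocrine and mesothelial markers therefore counted in it, not only those of fibroblasts, vessels and immune cells. With the mean level of non-epithelial markers as a covariate, the log2 fold changes of all 10 Wnt targets were positive, at 1.45 for Axin2 (SE 1.28; edgeR adjusted p = 0.649), and 0 were called. With sex as a covariate 9 were positive, at 0.28 for Axin2 (SE 1.02; edgeR adjusted p = 0.902). The part of these markers and of sex in the low levels of null 7 and WT 3 was not tested.

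Pairs of genes were then compared over the 9 tumors on log2 CPM. Of 45 pairs, 40 had a positive Pearson r, and 17 passed a permutation test at a Benjamini-Hochberg adjusted p under 0.05 by Pearson's r, and 2 of those also by Spearman's rho. Axin2 and Nkd1 were most alike (r = 0.99, permutation p = 1e-04, adjusted p = 0.0045; Spearman rho = 0.93, permutation p = 0.00077, adjusted p = 0.0346). Leaving out WT 3 and null 7, the tumors farthest from the median of Axin2, r was 0.94 (permutation p = 0.00735, adjusted p = 0.331). After the mean of each genotype was taken away, r was 0.99.

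Axin2 was also set against the other genes. Axin2 and Lgr5 gave r = 0.95 (permutation p = 0.00076, adjusted p = 0.0081; rho = 0.75, adjusted p = 0.14) and 0.85 without WT 3 and null 7 (permutation p = 0.0343, adjusted p = 0.409). Axin2 and Lef1 gave r = 0.94 (permutation p = 0.00108, adjusted p = 0.0081; rho = 0.90, adjusted p = 0.0448), and 0.56 without them. For Axin2 and Sp5, r was 0.84 (permutation p = 0.00477, adjusted p = 0.0179; rho = 0.65, adjusted p = 0.168) and 0.51 without them. For Axin2 and Apcdd1 it was 0.94 (permutation p = 0.00099, adjusted p = 0.0081; rho = 0.70, adjusted p = 0.14) and 0.69 without them. For each pair, the 2 tumors farthest from the median of its first gene were left out, so these tumors differed between pairs. Extreme values of the other gene could remain. In this setting 0 of the 45 passed the adjusted threshold, Axin2 and Nkd1 included, and 4 had an unadjusted permutation p under 0.05.

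Between Znrf3 and Axin2 no relation was detectable (r = -0.02, permutation p = 0.959, adjusted p = 0.975; rho = 0.0, permutation p = 1.0), nor without null 7 and WT 3 (r = 0.11). Znrf3 and its relative Rnf43 gave r = 0.59 (permutation p = 0.108, adjusted p = 0.179; rho = 0.08, permutation p = 0.842), and -0.15 without WT 3 and null 23. Among 12337 genes, those with the highest r over the 9 tumors were Nkd1 (0.989), Timp3 (0.983) and Zbtb46 (0.981) for Axin2. For Lgr5 they were Lmo7 (0.974), Gdf11 (0.969) and Man2a1 (0.954). For Lef1 they were Zfp618 (0.975), Slc9a3r2 (0.966) and Tnfrsf19 (0.966), and for Znrf3 Wee1 (0.987), Mtor (0.977) and Dhx29 (0.975). These are the extremes of a search and carry no p. Tnfrsf19, which is itself among the other Wnt targets listed below, was at 0.101 CPM in null 7 and 0.859 CPM in WT 3. It ranged over 5.79 to 34.1 CPM in the remaining null and 19.6 to 28.2 CPM in the remaining WT tumors. Levels by tumor are not given for Zfp618 and Slc9a3r2.

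**Figure D4:**
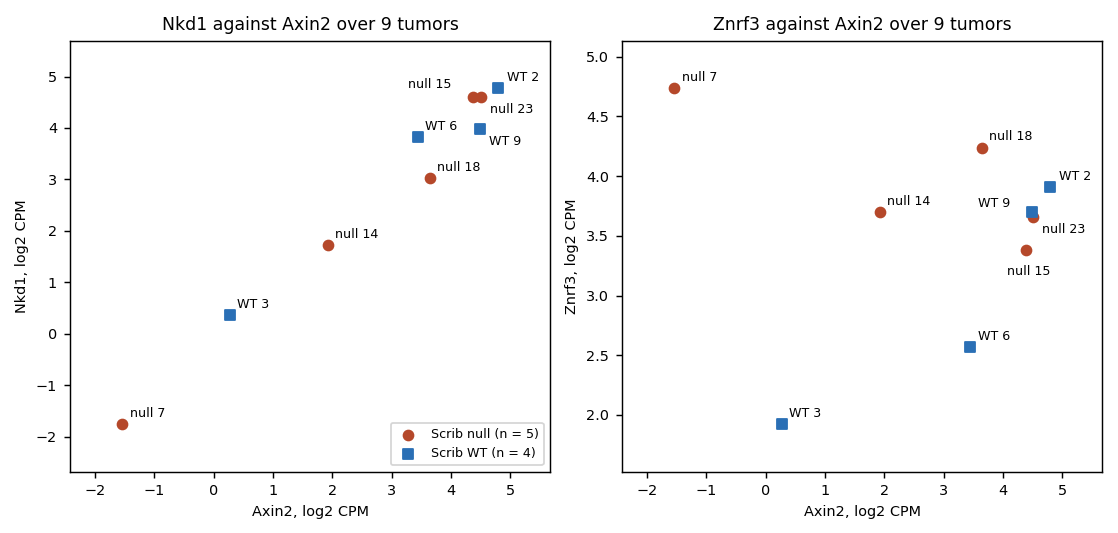
Log2 CPM of Nkd1 (left) and Znrf3 (right) against log2 CPM of Axin2 in each tumor, 5 null and 4 WT. Nkd1 is higher where Axin2 is higher in both genotypes (r = 0.99), no relation is detectable for Znrf3 (r = -0.02), and null 7 is lowest in Axin2 and highest in Znrf3.

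Around these targets, 104 other pathway genes were listed in 8 groups, and 86 were tested. By edgeR 0 of the 86 were called. DESeq2 called 3 of the 89 it tested (3.37%), against 625 of all 18423 genes (3.39%). Of the 86, 51 had a positive and 35 a negative log2 fold change, with a median of 0.18 against -0.03 over all genes. At an unadjusted p under 0.05, 16 were positive and 4 negative, where 7.64% and 10.0% of all genes were. Groups did not overlap for 6 of the 86 (6.98%), against 6.91% of all genes. The direction differed from group to group.

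Of the 12 ligand genes tested, 6 had positive and 6 negative log2 fold changes. Wnt7b, which with Wnt7a is a ligand of epithelia, was at 226, 354, 431, 433 and 261 CPM in null 7, 14, 15, 18 and 23, against 198, 75.5, 58.3 and 173 CPM in WT 2, 3, 6 and 9. Every null tumor lay above every WT tumor, and the log2 fold change was 1.43 (SE 0.40; edgeR adjusted p = 0.201; DESeq2 adjusted p = 0.0219). Wnt7a was also without overlap, at a log2 fold change of 1.12 (SE 0.21; edgeR adjusted p = 0.172; DESeq2 adjusted p = 0.000148). Wls, the carrier that takes Wnt proteins to the cell surface, was likewise lowest in null 7 and, among WT tumors, in WT 3, at 4.24, 26.7, 87.4, 61.3 and 112 CPM in null 7, 14, 15, 18 and 23, against 189, 28.9, 114 and 107 CPM in WT 2, 3, 6 and 9. The genotypes overlapped (log2 fold change -0.91, SE 0.74; edgeR adjusted p = 0.519).

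Of 12 receptor genes, 9 were positive, with 1 under an unadjusted p of 0.05. That 1 was Lrp6, a Wnt co-receptor, which averaged 131 ± 48.7 CPM in null and 65.1 ± 28.8 CPM in WT (SD, n = 5 and 4; log2 fold change 1.01, SE 0.35; edgeR adjusted p = 0.226). The R-spondin receptor Lgr6 had a positive log2 fold change of 1.43 (SE 0.53; edgeR adjusted p = 0.233), with 22.8, 100.4, 114, 88.0 and 48.7 CPM in null 7, 14, 15, 18 and 23, against 50.3, 11.2, 18.2 and 31.1 CPM in WT 2, 3, 6 and 9. Here null 7 and WT 3 were again the lowest of their genotypes.

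Of the 9 Wnt antagonist genes tested, 7 encode secreted proteins, and Kremen1 and Kremen2 are membrane receptors of Dickkopf proteins. All 9 had negative log2 fold changes (median -0.94), Kremen1 at -0.01, with 0 called by edgeR. Dkk3 and Kremen2 (log2 fold change -1.64, SE 0.65; edgeR adjusted p = 0.248) were under an unadjusted p of 0.05. Dkk3, a secreted protein of the Dickkopf family, was at 16.2, 23.8, 38.9, 25.4 and 32.5 CPM in null 7, 14, 15, 18 and 23, against 107, 21.2, 45.6 and 81.2 CPM in WT 2, 3, 6 and 9 (log2 fold change -1.22, SE 0.42; edgeR adjusted p = 0.225). Sfrp1, a decoy that binds Wnt proteins, had a log2 fold change of -1.41 (SE 0.65; edgeR adjusted p = 0.287). All 9 were negative without both null 7 and WT 3 (median -1.11), 7 without null 7 alone (median -0.76) and 6 without WT 2 (median -0.60). With sex as a covariate 7 were negative (median -0.66), and with the level of non-epithelial markers 5 were (median -0.21). All tested markers of fibroblasts (9), pericytes and smooth muscle (8), endothelium (8), macrophages (10), neutrophils (6), T cells (8) and adipocytes (2) were negative as well. Epithelial, acinar, endocrine, B cell, neural and mesothelial markers went both ways. The part of these cell types in the antagonist values was not tested.

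Inside the cell, 14 of 15 genes of the Dishevelled and destruction complex group were positive (median 0.51), with 5 under an unadjusted edgeR p of 0.05. Of beta-catenin and its nuclear partners, 10 of 11 were positive (median 0.56), with 4 under 0.05, and 0 were called in either group. Over all genes tested, 47.8% were positive, and 7.64% were positive with an unadjusted p under 0.05. Without both null 7 and WT 3, 14 of 15 (median 0.35) and 8 of 11 (median 0.44) were positive. Axin1, the constitutive counterpart of Axin2, was at 80.5, 86.2, 79.6, 90.1 and 80.0 CPM in null 7, 14, 15, 18 and 23, against 59.7, 61.8, 69.9 and 72.3 CPM in WT 2, 3, 6 and 9. It was without overlap and nearly flat within each genotype, with a log2 fold change of 0.34 (SE 0.16; edgeR adjusted p = 0.29). Ctnnb1, which encodes beta-catenin, averaged 1328 ± 237 CPM in null and 879.8 ± 315 CPM in WT (SD, n = 5 and 4; log2 fold change 0.59, SE 0.29; edgeR adjusted p = 0.314). Csnk1e, a kinase that acts on Dishevelled, gave a log2 fold change of 0.72 (SE 0.23; edgeR adjusted p = 0.221), and Bcl9, a beta-catenin co-activator, 0.89 (SE 0.31; edgeR adjusted p = 0.226).

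**Figure D5:**
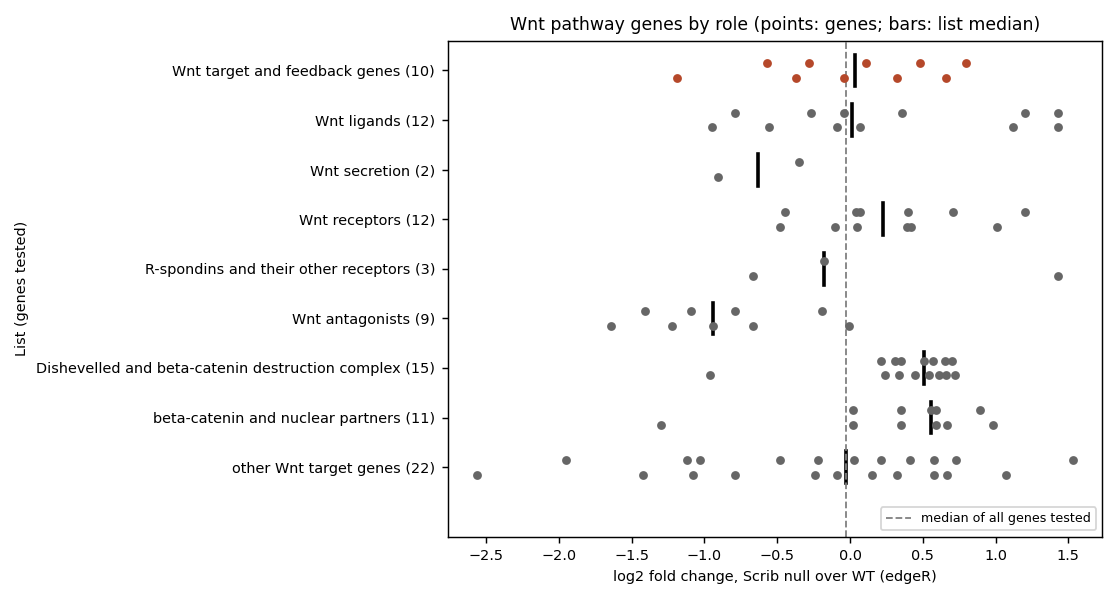
Log2 fold change, Scrib null over WT, of each tested gene of the 8 pathway groups and of the 10 Wnt targets, with the median of each group. The antagonists lie below 0 (median -0.94) and the destruction complex and nuclear partners mostly above it (medians 0.51 and 0.56), and no gene passed edgeR's adjusted threshold.

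Of 22 other targets tested, 11 were positive and 11 negative, with 2 of each under an unadjusted p of 0.05 (median -0.03). Ccnd1, a cyclin that drives entry into the cell cycle, averaged 776 ± 163 CPM in null and 368 ± 198 CPM in WT (SD, n = 5 and 4; log2 fold change 1.07, SE 0.38; edgeR adjusted p = 0.227). Myc, a growth-promoting transcription factor, was at 1032, 159.9, 201, 179 and 157 CPM in null 7, 14, 15, 18 and 23, against 95.3, 90.7, 183 and 111 CPM in WT 2, 3, 6 and 9. One tumor carried most of its difference: the log2 fold change was 1.53 (SE 0.62; edgeR adjusted p = 0.25), and 0.55 without null 7. Smoc2, a matrix protein of intestinal stem cells, was on the other side at -1.95 (SE 0.59; edgeR adjusted p = 0.211; DESeq2 adjusted p = 0.045), and Mmp7, a protease, at -2.56 (SE 0.99; edgeR adjusted p = 0.243), which came to -0.93 without WT 3, where it was 1406 CPM. Null 7, the tumor with the least Axin2, had the most Myc and Ccnd1 of the 5 null tumors.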

How the data were processed

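mRNA from 9 tumors was compared, 5 labelled Scrib null and 4 labelled Scrib WT, grouped by the genotype in the labels. The deposited values are estimated counts per gene, not normalised, 1 column a tumor. Salmon 1.4.0, DESeq 2, GRCm38 and mm10 are named in the submitters' processing notes. The annotation release and whether the kit kept strand are not given in the sources used here. Opposite-strand genes overlapping Axin2, Lef1 and Notum reached at most 0.26 CPM. Symbols, coordinates and exon lengths were taken from GENCODE M21, with 54131 of 54453 rows matched. Promoter windows came from RefSeq (GRCm38.p6).

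Estimated counts were rounded (by at most 0.5). The filterByExpr function of edgeR 4.0.16, with a minimum count of 10 and a minimum total of 15, left 16169 genes, all 10 Wnt targets among them. These entered that tool's quasi-likelihood test, TMM-normalised, no covariate (R 4.3.3), with Benjamini-Hochberg adjustment over all genes and a threshold of 0.05. The SE of a log2 fold change was its size over the square root of F. Log2 CPM used a prior count of 2. Correlations used 100000 resamples of the pairing. Tested on simulated data with 200 of 16169 genes changed, this comparison found 32.3% of the 4-fold changes and 3.09% of the 2-fold changes. The changed genes were drawn at random from all genes tested. The 10 Wnt targets varied more than the median gene (median SD of log2 CPM 1.70 against 0.58), so these shares do not hold for them. Tumors differed by a biological coefficient of variation of 0.494 in common, more than counting error for all but the lowest values. None of the 16 pairs of same-genotype tumors looked like 1 library deposited again (lowest chi-square per degree of freedom 79.05).

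The 10 genes, the pathway groups and the markers were chosen with earlier results of these data known. Named were the 10 genes, Scrib, up to 3 genes of smallest p from each pathway group and a preset few (such as Ctnnb1, Myc and Ccnd1). The 3 genes nearest by r were named for Axin2, Lgr5, Lef1 and Znrf3 only. DESeq2 1.42.0, limma-voom (limma 3.58.1), 2 other normalizations, 2 other filters, edgeR's robust fit, 3 covariates (sex, tumor identifier range, non-epithelial marker level) and tumors left out were the alternatives.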

Additional observations from a re-analysis of the deposited data

Results flagged for a closer look

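Among 80 groups of tumors, 5 (6.25%) held a tumor that stood far from the others of its genotype, where chance gives about 1 in 20, and 2 of the 5 were among the 20 groups of the 10 Wnt targets. Lgr5, in WT 3, had a log2 CPM of -0.53, against 3.78 to 4.64 in the other WT tumors. Lef1, in null 7, had a log2 CPM of -3.43, against 0.74 to 2.10 in the other null tumors.

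The other 3 were pathway genes in null 7. Sfrp1 had a log2 CPM of 2.73, against 5.58 to 6.47 in the other null tumors. Mmp7 had a log2 CPM of 3.30, against 6.12 to 6.92. Myc was the single high value, at a log2 CPM of 10.01 against 7.29 to 7.65.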

How the results depend on the processing

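Over 20 other settings the 10 Wnt targets gave 198 log2 fold changes, of which 0 were called, 172 kept their sign and 26 reversed; the strict filter gave none for Notum and Lef1. With a sex covariate Axin2 was 0.28, Nkd1 0.33, Notum 0.10 and Apcdd1 0.10. With a non-epithelial marker covariate Axin2 was 1.45, Nkd1 1.42, Lgr5 0.11, Notum 0.26, Apcdd1 1.46, Wls 0.28 and Rspo1 0.74, and all 10 targets were positive. With the tumor identifier covariate Sp5 was -0.03, with limma-voom Notum was 0.48, Sp5 -0.17 and Lef1 -0.28, and with no filter Apcdd1 was 0.02. Leaving out 1 tumor at a time gave -0.74 to 0.06 for Axin2, -0.71 to 0.21 for Nkd1, -1.02 to 1.41 for Notum, -0.46 to 0.41 for Sp5, -0.12 to 0.81 for Lef1, -0.63 to 0.33 for Apcdd1 and -1.19 to 0.24 for Rspo1; Lgr5 stayed negative (-1.71 to -0.71), and Rnf43, Znrf3 and Tcf7 positive (0.05 to 1.10, 0.58 to 1.12 and 0.40 to 0.98). Without WT 2, 1 of the 10 had an unadjusted p under 0.05. Over all genes, 2 were called in the main setting, 7 with no filter, 1 with the sex covariate, 0 with the identifier or non-epithelial covariate, 0 without both null 7 and WT 3, 0 to 1 with 1 tumor left out, and 625 of 18423 (3.39%) by DESeq2 (212 higher, 413 lower), which called 3 of 89 pathway genes (3.37%). With the 2 tumors farthest from the median of each pair's first gene left out, correlated pairs went to 0, against 17 in all tumors. In that setting r was 0.11 for Axin2 and Znrf3 (0.09 after group means in all tumors), -0.15 for Rnf43 and Znrf3 and -0.11 for Znrf3 and Tcf7. Upper-quartile scaling moved the all-gene median to -0.129, against -0.035. The cause of these changes was not tested. No paired analysis was possible because the genotypes share no replicate number. The lowest values of null 7 and WT 3 rest on few counts.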
